A study of Sus scrofa with 9 samples.

Results

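Static cold storage is the common way to carry a donor heart, and it is limited to a few hours. The comparison described here set hearts kept for a whole day by cold oxygenated perfusion against hearts kept briefly on ice, at the level of the transcriptome. It covers 6 of the 9 pig hearts of the series, all from different female American Yorkshire pigs of 4 to 6 months in a model of donation after circulatory death (DCD). Group 1 (NRP + HOPE 24 h) held pigs 27, 28 and 30. Group 2 (NRP + SCS 2 h) held pigs 24, 25 and 29. In both groups the heart stood still in the warm body for 15 min, and warm blood was then pumped through the organs inside the donor for 60 min, which is normothermic regional perfusion (NRP). Hypothermic oxygenated perfusion (HOPE) then kept Group 1 hearts at 8 °C over 24 h. In this method a pump drives a cold oxygenated solution with donor red cells, insulin and antibiotics through the coronary vessels. Static cold storage (SCS) kept Group 2 hearts at 4 °C over 2 h, immersed in preservation solution without flow. Every heart was then rewarmed and run for 2 h on donor blood in normothermic machine perfusion (NMP), and RNA was taken from an apex biopsy frozen at the end of NMP. The values therefore describe myocardium after storage and warm reperfusion. The storage method, its length and its temperature changed together and cannot be told apart. The 3 hearts of Group 3 (No NRP + HOPE 2 h, pigs 31, 33 and 34) had the same warm ischemia, no NRP and 2 h of HOPE. For part of the genes their levels are given beside the others, as values without a test. Group 3 differs from both groups in NRP, from Group 1 also in the length of storage and from Group 2 also in the storage method.

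As background, return of flow and oxygen to ischemic myocardium engages innate immune signaling. The transcription factor family NF-kB is held in the cytoplasm by inhibitor proteins, moves to the nucleus once these are degraded, and switches on chemokine and prostaglandin genes together with its own inhibitors, so that the signal limits itself. In the heart, vessel wall cells and fibroblasts as well as immune cells are known sources of such chemokines. Cardiomyocytes meanwhile depend on oxidative metabolism, on calcium cycling and on gap junctions at the intercalated disc, where neighbouring cells are joined.

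Expression is given in TPM, a read count scaled for gene length and to the same total in every heart. Differences of log2 values and log2 fold changes are both on the log2(TPM + 1) scale, as NRP + HOPE 24 h minus NRP + SCS 2 h, with their standard error (SE) from the fit. TPM holds no sequencing depth, so depth is unknown, and precision rests on the spread between 3 hearts. Of 25149 genes listed, 11099 reached 1 TPM in at least 3 of the 6 hearts and were tested. The labels name cardiomyocytes as the cell type, while the samples are pieces of whole myocardium. Cardiomyocyte markers were abundant in all 6 hearts, with cardiac troponin I (TNNI3) between 7841 and 16475 TPM and cardiac troponin T (TNNT2) between 7219.6 and 15218 TPM. Markers of other cells were present too, such as the endothelial gene PECAM1 (108 to 234 TPM) and the fibroblast gene DCN (279.6 to 383 TPM). In bulk tissue, fewer cells of a type and less RNA per cell cannot be told apart.

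Pigs 30 and 27 stood apart within Group 1, in opposite ways. The 13 mitochondrially encoded protein genes took 55.3, 54.7 and 38.2% of all TPM in pigs 27, 28 and 30, and 48.5, 49.5 and 52.7% in pigs 24, 25 and 29. The group means of 49.4 ± 9.71% and 50.2 ± 2.18% (SD, n = 3 hearts) differed by less than the spread (p = 1, two-sided exact permutation test, which with these group sizes cannot go below 0.1). Because TPM shares a fixed total, a lower share of these abundant genes leaves more of it to all others. Median-of-ratios scaling, which gives each heart a factor from the genes above 0 in every heart, assigned 0.737, 0.916 and 1.34 to pigs 27, 28 and 30, and 1.06 to 1.08 to Group 2. It raised the log2 fold changes by a median of 0.13, from a median of -0.12 over all genes tested to near 0. Without pig 30 that median was -0.32, and without pig 27 it was 0.044. Differences are therefore to be read against this shift, and medians are given on both scales.

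**Figure D1:**
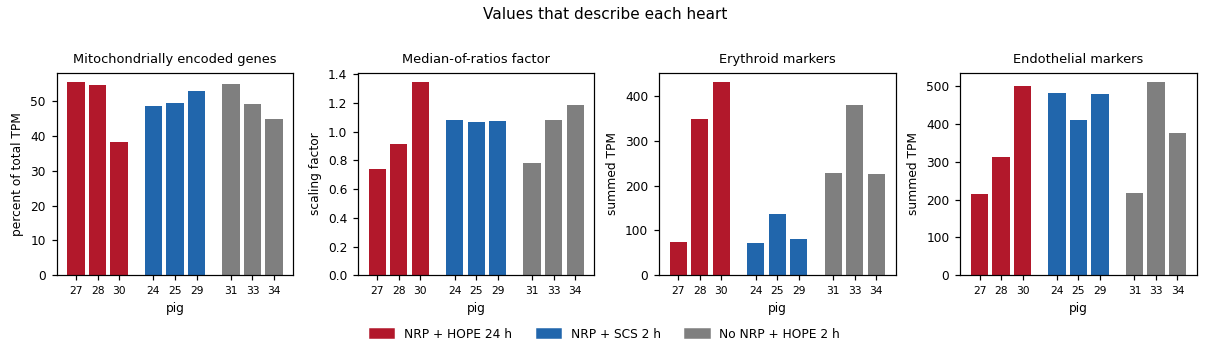
Values for each of the 9 hearts, one bar per pig, coloured by group: the percentage of total TPM from the 13 mitochondrially encoded protein genes, the median-of-ratios scaling factor (no unit), and the summed TPM of the erythroid and of the endothelial marker genes. Pig 30 has the lowest mitochondrial share (38.2%) and the highest factor (1.34), and pig 27 the lowest factor (0.737).

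At an adjusted p under 0.05 (limma on log2(TPM + 1), Benjamini-Hochberg over all 11099 genes) and an absolute log2 fold change over 1, 3 genes were higher in NRP + HOPE 24 h (0.027%) and 0 were lower. Among the 3, ENSSSCG00000025572 and ENSSSCG00000018631 reached the level needed for testing only through the NRP + HOPE 24 h hearts, where they are high. The count of 3 therefore rests in part on genes whose calls are not independent of the filter for testing. With the adjustment left out, the same fold change and p limits gave 111 higher genes (1%) and 132 lower genes (1.19%). Under median-of-ratios scaling these became 150 and 80, so the higher share moved from 45.7 to 65.2%. An unadjusted p under 0.05 at any fold change was reached by 189 higher and 358 lower genes, and after scaling by 513 (4.62%) and 446 (4.02%). Single hearts moved the adjusted counts. Without pig 30 no gene passed, although 1246 had an unadjusted p under 0.05, and without pig 27 the adjusted counts were 12 higher and 3 lower.

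The 3 genes that rose carry no gene symbol in the files or in the reference table. ENSSSCG00000017698 had 195, 92.0 and 77.7 TPM in pigs 27, 28 and 30, and 5.84, 16.6 and 2.39 TPM in pigs 24, 25 and 29. On the log2 scale it was higher by 3.92 (SE 0.50, limma adjusted p = 0.00979), and every Group 1 heart lay several times above the highest Group 2 heart. Group 3 lay between them, at 32.5, 35.4 and 43.9 TPM. ENSSSCG00000025572 stood at 0 in every heart of Groups 2 and 3, and at 4.76, 4.13 and 5.91 TPM in Group 1 (limma adjusted p = 0.00732). ENSSSCG00000018631, assigned by the files to the short RNA family RF00341, was listed at 0 in Group 2, at 6.73, 10.5 and 5.01 TPM in Group 1, and at 1.94, 0 and 0 TPM in Group 3 (limma adjusted p = 0.0216). Both are low genes, and no fold change is given against a group at 0. With Group 2 at 0, both passed the filter for testing only through Group 1, where they are high. Their calls are therefore not independent of that filter. Without it the limma adjusted p was 0.00183 for ENSSSCG00000025572, and 0.120 for each of ENSSSCG00000018631 and ENSSSCG00000017698. Without pig 30 the limma adjusted p was 0.0644 for ENSSSCG00000017698 and 0.0644 for ENSSSCG00000025572, so both calls were lost. For ENSSSCG00000018631 the call was lost without any heart other than pig 27 (adjusted p from 0.0632 without pig 25 to 0.117 without pig 28). Under median-of-ratios scaling ENSSSCG00000025572 passed (adjusted p = 0.00607), while the other two had an adjusted p of 0.0755 each.

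No gene with a symbol passed the adjusted threshold. The genes described from here on are those with the smallest p-values by a fixed rule, and the values of each heart show what lies behind them. Values are always listed in the order of pigs 27, 28 and 30 for NRP + HOPE 24 h, pigs 24, 25 and 29 for NRP + SCS 2 h, and pigs 31, 33 and 34 for No NRP + HOPE 2 h. The 15 leading genes of each direction were required to have no overlap between the 3 hearts of each group, so their lack of overlap is not a finding. Adjusted p-values are from limma throughout. Counts of list members at an unadjusted p under 0.05 are to be read against 1.7% of all genes with higher and 3.23% with lower levels. Counts of genes with a higher or lower mean use means of log2(TPM + 1), which can differ in order from means of TPM. In 34 of the 47 lists the sign of the median changed in at least 1 alternative, and the plot of list medians shows the range with 1 heart left out.

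The list of NF-kB subunits and feedback inhibitors also holds targets and adaptors such as CD83 and TRAF1. Most of its members had a higher mean in NRP + HOPE 24 h than in NRP + SCS 2 h. No member passed the adjusted threshold in this or any other of the 47 lists. Of the 23 tested genes of this list, 5 had an unadjusted p under 0.05 with higher levels in NRP + HOPE 24 h, against 1.7% of all genes, and 0 with lower levels, against 3.23%. In 7 genes every Group 1 heart lay above every Group 2 heart, against 2.41% of all genes, and after scaling in 9, against 7.12%. The mean was higher in 18 of the 23, against 35.3% of all genes, and after scaling in 19, against 50% of all genes. The median log2 fold change of the list was 0.41 (0.56 after scaling), and with each heart left out it ranged from 0.31 to 0.53. The lists were written with earlier results of these data known, and this one had already shown higher levels, so its counts describe the same pattern again.

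CD83, a surface glycoprotein of activated dendritic and lymphoid cells that NF-kB induces, stood at 34.1, 50.1 and 98.2 TPM in NRP + HOPE 24 h and 11.8, 11.2 and 18.4 TPM in NRP + SCS 2 h (difference of log2 values 1.96, SE 0.37, adjusted p = 0.105). Its lowest Group 1 heart, pig 27, was still well above the highest Group 2 heart. IER3, a stress-induced survival gene, had 360.4, 709.8 and 596 TPM against 181, 236 and 151 TPM, 2.94-fold on the means (adjusted p = 0.120). TNFAIP3 encodes the ubiquitin-editing enzyme A20, which shuts NF-kB signaling off, and had 28.7, 57.00 and 42.9 TPM against 15.6, 9.58 and 9.38 TPM (difference of log2 values 1.79, adjusted p = 0.177). In Group 3 TNFAIP3 stood at 4.94, 13.9 and 11.3 TPM, within or below the Group 2 range, and IER3 at 136, 209.8 and 139 TPM, with pig 33 inside the Group 2 range and the others below it. CD83 was intermediate there, at 23.7, 28.7 and 22.9 TPM. Among the subunits themselves, REL, which encodes c-Rel, had 12.6, 14.3 and 17.6 TPM against 7.25, 6.53 and 6.09 TPM, a narrow spread in both groups and 2.24-fold on the means (unadjusted p = 0.00572, adjusted p = 0.629). The other tested subunits are named after their values were seen. NFKB2 had 36.7, 38.3 and 60.3 against 29.4, 31.2 and 28.7 TPM, without overlap (unadjusted p = 0.0775). NFKB1 had 10.6, 15.4 and 25.4 against 11.1, 7.48 and 11.15 TPM (unadjusted p = 0.109). RELA had 28.1, 32.3 and 36.3 against 30.0, 27.9 and 28.1 TPM (unadjusted p = 0.575), and NFKB1 and RELA overlapped between groups. TRAF1, a receptor adaptor named here after its values were seen because it is the remaining member with an unadjusted p under 0.05, had 5.21, 5.77 and 9.13 TPM against 3.28, 4.14 and 1.89 TPM.

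Among chemokines and cytokines, CXCL8, CXCL2, IL1A and CCL2 were the 4 of 22 tested genes with an unadjusted p under 0.05 and higher levels, against 1.7% of all genes. At that p 0 members had lower levels. In 6 the Group 1 hearts were all above the Group 2 hearts, against 2.41% of all genes, and after scaling in 7, against 7.12%. The median log2 fold change was 0.50 (0.62 after scaling, 0.31 without pig 30 and 0.74 without pig 27). CXCL8 and CXCL2 both attract neutrophils. CXCL8 had 10.8, 74.2 and 22.8 TPM in NRP + HOPE 24 h and 3.08, 6.67 and 2.90 TPM in NRP + SCS 2 h. CXCL2 had 804, 1468 and 202 TPM against 185, 137 and 50.1 TPM. In both genes pig 28 was by far the highest heart. The lowest Group 1 heart of CXCL2, pig 30, barely exceeded pig 24. CXCL8 had a log2 fold change of 2.48 (SE 0.61, adjusted p = 0.311), which ran from 1.76 to 3.09 with 1 heart left out. For CXCL2 it was 2.50 (SE 0.62, adjusted p = 0.311), from 1.88 to 3.31. Group 3 had 4.47, 19.6 and 5.90 TPM of CXCL8, with pig 33 inside the Group 1 range. Its CXCL2 levels of 111, 144 and 56.1 TPM lay within the Group 2 range. Pigs carry near-identical chemokine copies next to CXCL2, and reads shared between copies could not be assigned by counting unique reads, so its level is uncertain.

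IL1A, an alarmin released by damaged cells, had 4.65, 12.97 and 9.35 TPM against 1.44, 3.22 and 1.97 TPM (4.07-fold, unadjusted p = 0.00326, adjusted p = 0.443). CCL2, the main monocyte attractant, was the most abundant transcript of the list at 2339.8, 4867 and 2844 TPM against 1882, 2064 and 1152 TPM, 1.97-fold on the means (adjusted p = 0.756). Group 3 had 1373, 2579 and 1389 TPM, with pig 33 inside the Group 1 range. IL2RA, the alpha chain of the interleukin 2 receptor, stood low but apart in Groups 1 and 2, with 5.58, 15.2 and 8.29 TPM against 2.17, 2.001 and 1.66 TPM (adjusted p = 0.192). Group 3 had 2.44, 6.86 and 4.90 TPM of it, with pig 33 inside the Group 1 range. In CXCL8, CXCL2, IL1A, CCL2 and IL2RA alike, pig 28 held the highest value of the 6 hearts. The classical inflammatory cytokine TNF, named after its values were seen, had 1.54, 1.61 and 0.766 against 2.21, 2.30 and 0.690 TPM and did not share this order. IL6, named likewise, stayed below 1 TPM in all 6 hearts and was not tested.

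In prostaglandin synthesis the inducible step led. PTGS2, the inducible cyclooxygenase, had 30.4, 124 and 32.6 TPM against 9.19, 14.5 and 10.9 TPM (difference of log2 values 2.04, SE 0.62, adjusted p = 0.620), again with pig 28 highest. In Group 3 PTGS2 stood at 9.58, 37.5 and 4.79 TPM, with pig 33 inside the Group 1 range. PTGES, which makes prostaglandin E, had 6.71, 9.69 and 11.3 TPM against 6.05, 5.16 and 4.35 TPM, without overlap (unadjusted p = 0.0632). The prostacyclin receptor gene PTGIR had 1.52, 3.39 and 4.45 TPM against 1.70, 1.27 and 0.894 TPM, and pig 27 lay inside the Group 2 range (unadjusted p = 0.0443). In all, 2 of 13 tested genes of the prostaglandin list had an unadjusted p under 0.05, PTGS2 and PTGIR, both with higher levels, and the median log2 fold change was 0.30 (0.38 after scaling, 0.067 without pig 30).

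The sensors and other branches of innate immunity were covered by further lists. Of 13 Toll-like receptor and inflammasome genes, 2 had an unadjusted p under 0.05 with higher levels, the kinase gene IRAK2 (60.1, 74.3 and 62.9 against 52.8, 36.9 and 27.6 TPM) and the endotoxin receptor gene TLR4 (6.39, 4.73 and 9.33 against 2.86, 3.89 and 4.18 TPM). IRAK4, the kinase that receptor engagement activates first, had 2.68, 4.42 and 5.37 against 6.93, 7.001 and 5.79 TPM (unadjusted p = 0.128). The median of that list was 0.049 (0.082 after scaling). Interferon-stimulated genes gave 0 higher and 0 lower genes of 28 at an unadjusted p under 0.05, with a median of 0.022 (0.16 after scaling). In antigen presentation, 1 of 8 genes had a higher mean, against 35.3% of all genes, and 3 of 8 after scaling, against 50%. The median was -0.18 (-0.033 after scaling). CIITA, the master activator of class II genes, had 1.87, 2.04 and 4.15 against 9.81, 4.07 and 5.89 TPM (unadjusted p = 0.0441, adjusted p = 0.973). Of 12 complement genes, C5AR1, the receptor for the C5a fragment, was the member with an unadjusted p under 0.05, at 4.25, 5.41 and 12.4 against 13.9, 14.2 and 9.83 TPM, with pig 30 inside the Group 2 range. The median of the complement list was 0.041 (0.15 after scaling).

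**Figure D2:**
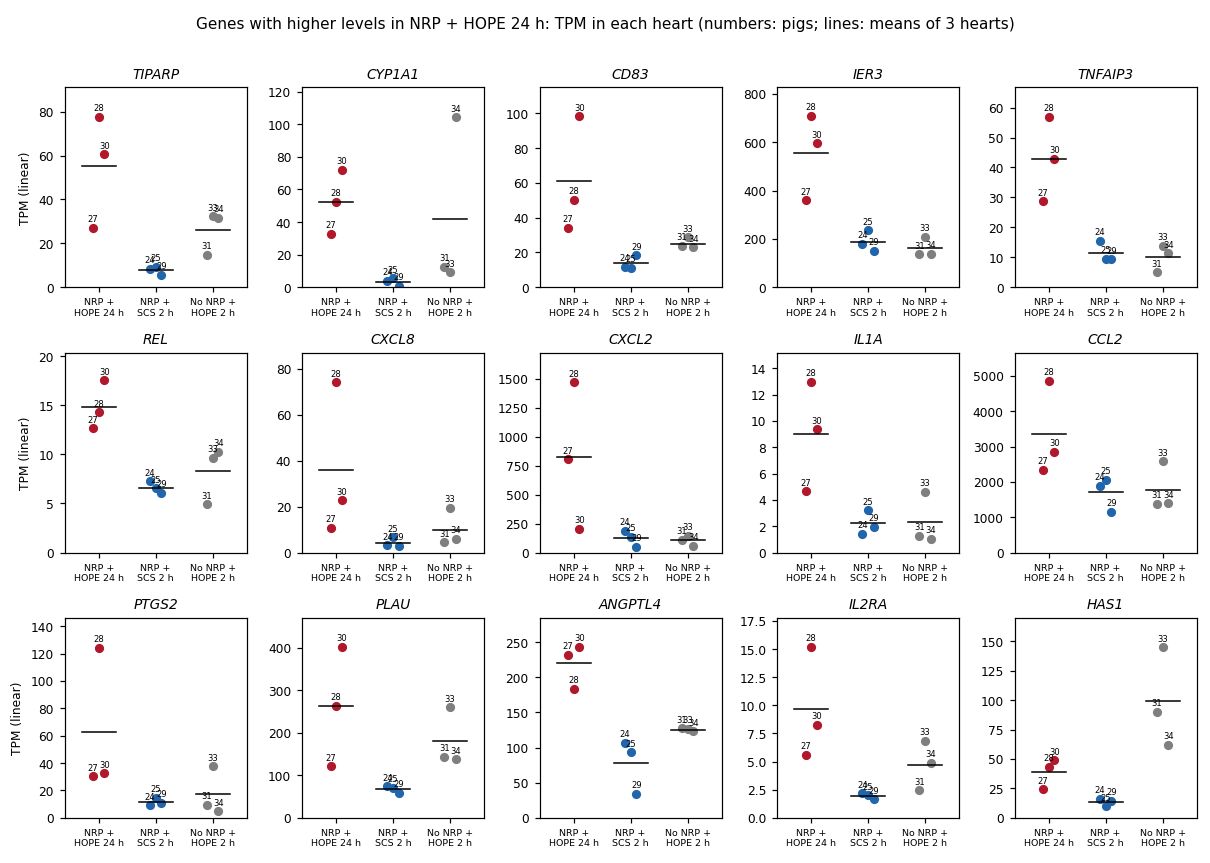
TPM on a linear axis starting at 0 for 15 genes with higher levels in NRP + HOPE 24 h. Points are single hearts labelled by pig number (red, NRP + HOPE 24 h; blue, NRP + SCS 2 h; grey, No NRP + HOPE 2 h), and black lines are means of 3 hearts. In CXCL8, CXCL2, IL1A and PTGS2 the highest heart is pig 28, while CD83 and PLAU are highest in pig 30.

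The gene with a symbol that came closest to the threshold among the higher genes was TIPARP, an ADP-ribosyltransferase induced by the aryl hydrocarbon receptor and one of its repressors. The receptor is a cytoplasmic sensor of small aromatic molecules, and CYP1A1, a monooxygenase of foreign compounds, is its best known target. TIPARP had 27.2, 77.7 and 60.6 TPM in NRP + HOPE 24 h and 8.36, 9.26 and 5.76 TPM in NRP + SCS 2 h, 7.08-fold on the means (difference of log2 values 2.57, SE 0.41, adjusted p = 0.0515). Even pig 27, the lowest, stood far above the highest Group 2 heart. TIPARP passed the adjusted threshold under 8 of 17 alternatives, with an adjusted p from 6.53e-05 to 0.242. CYP1A1 had 32.8, 52.3 and 72.1 TPM against 3.78, 5.55 and 0.863 TPM (15.4-fold, adjusted p = 0.105). Its Group 3 hearts were split, with 12.6, 9.12 and 104 TPM, so that pig 34 exceeded every heart with NRP. TIPARP had 14.7, 32.3 and 31.8 TPM in Group 3, above Group 2 and up to the lower part of the Group 1 range.

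The other members did not share one direction. NQO1, a quinone reductase shared with the NRF2 pathway, had 16.5, 18.4 and 34.1 against 13.01, 19.9 and 13.4 TPM. The receptor gene AHR itself ranged from 3.40 to 6.85 TPM over the 6 hearts. Of 7 genes tested, 2, TIPARP and CYP1A1, were higher at an unadjusted p under 0.05, and the median of 0.50 (0.60 after scaling) ranged from -0.065 to 0.69 with 1 heart left out.

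Several further leading genes act outside the cell. PLAU, the urokinase plasminogen activator, had 121, 263 and 402 TPM in NRP + HOPE 24 h and 74.1, 70.9 and 59.00 TPM in NRP + SCS 2 h (3.85-fold, adjusted p = 0.177). The Group 2 hearts lay within a narrow band and the Group 1 hearts were widely spread above it. In Group 3 PLAU stood at 144, 259.6 and 138 TPM, within the Group 1 range. PLAT, the tissue-type plasminogen activator of the endothelium, had 225, 318 and 366 against 166, 189.6 and 125 TPM (unadjusted p = 0.0162, adjusted p = 0.839). ANGPTL4, a secreted inhibitor of lipoprotein lipase, had 232, 184 and 244 against 107, 93.2 and 34.3 TPM, with pig 29 far below the other hearts (log2 fold change 1.63, adjusted p = 0.185). HAS1, a hyaluronan synthase, had 24.1, 43.5 and 49.0 against 16.4, 9.88 and 14.6 TPM (2.86-fold, adjusted p = 0.358), and Group 3 was higher still at 90.3, 145 and 61.98 TPM.

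Over the matrix as a whole both directions occurred. Of 26 matrix protease, inhibitor and hyaluronan genes tested, 2 were higher, PLAU and HAS1, and 2 were lower at an unadjusted p under 0.05. The lower ones were the metalloproteinase genes ADAMTS7 (8.45, 7.19 and 17.96 against 27.9, 28.1 and 18.7 TPM) and MMP11 (79.1, 48.6 and 72.6 against 146, 138 and 95.2 TPM), and neither overlapped between groups. The list median was 0.20 (0.33 after scaling, -0.037 without pig 30). Of 14 collagen genes, 13 had a higher mean, against 35.3% of all genes, but 0 reached an unadjusted p under 0.05, and the median was 0.13 (0.27 after scaling, -0.064 without pig 30). COL5A1 was the collagen gene whose groups did not overlap, at 21.5, 25.4 and 40.3 against 17.1, 19.6 and 16.6 TPM (unadjusted p = 0.0566), and COL3A1, the main interstitial collagen besides type I, had 341, 502 and 609 against 279.5, 417 and 475 TPM.

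Among the other leading higher genes, HCFC1R1 and THOC6 cannot be separated with certainty. They overlap in the RefSeq annotation of Sscrofa11.1, and reads in the shared stretch may count for either. HCFC1R1, a regulator of a host cell factor, had 74.6, 90.3 and 89.8 against 30.9, 44.02 and 17.7 TPM. THOC6, part of the complex that couples transcription to mRNA export, had 177, 197 and 241 against 85.9, 103 and 50.5 TPM. Their adjusted p-values were 0.265 and 0.301. VASH2, a tubulin carboxypeptidase of the vasohibin family, had 8.06, 13.02 and 26.3 against 3.58, 5.49 and 3.43 TPM (adjusted p = 0.345). STX11, a syntaxin of immune cell granule release, had little spread in either group, at 108, 122 and 124 against 47.6, 51.1 and 57.4 TPM (2.26-fold, adjusted p = 0.358), and with any heart left out its log2 fold change lay between 1.10 and 1.24. In Group 3 STX11 was widely spread at 58.9, 99.6 and 137 TPM, with pig 34 above every Group 1 heart. LCK, the T cell receptor kinase and a marker of T cells, had 5.25, 7.47 and 6.16 against 1.98, 2.77 and 2.84 TPM (unadjusted p = 0.00482, adjusted p = 0.575). Of the 9 T and NK cell markers tested, LCK was the one with an unadjusted p under 0.05. The summed TPM of the 10 markers in the table was 14.98, 25.5 and 41.6 in Group 1 and 20.3, 16.5 and 27.8 in Group 2, the ranges overlapped, and no defining marker was at 0 throughout.

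Among the genes with lower levels in NRP + HOPE 24 h was LIMS1, also called PINCH1, an adaptor at integrin adhesions that the files list without a symbol, which was taken from the reference table. It had 22.97, 25.9 and 39.8 TPM in NRP + HOPE 24 h and 92.6, 93.6 and 133 TPM in NRP + SCS 2 h, 3.60-fold lower on the means (difference of log2 values -1.83, SE 0.30, adjusted p = 0.0515). The highest Group 1 heart, pig 30, lay far below the lowest Group 2 heart, and Group 3 stood with Group 1 at 24.8, 32.9 and 36.4 TPM. LIMS1 passed the adjusted threshold under 8 of 17 alternatives, with an adjusted p from 6.87e-05 to 0.268. BVES and POPDC3 encode Popeye domain proteins, membrane proteins of muscle that bind cyclic AMP and modulate cardiac pacemaking. BVES had 6.18, 6.05 and 5.85 TPM against 33.5, 25.7 and 18.9 TPM (4.32-fold lower, adjusted p = 0.0605). The Group 1 hearts were almost identical, with a SD of 0.167 TPM around a mean of 6.02 TPM, and Group 3 was close to them at 5.71, 5.65 and 10.6 TPM. POPDC3 had 22.7, 28.5 and 29.9 TPM against 71.8, 54.2 and 54.8 TPM (2.23-fold lower, adjusted p = 0.311), and 19.5, 21.01 and 28.8 TPM in Group 3. Both genes lie on the same chromosome with 1 gene between them in the RefSeq annotation of Sscrofa11.1.

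The cardiac connexins had lower levels as well. GJA1, the connexin of working myocardium, had 179.5, 302 and 243 against 359, 339 and 456 TPM, without overlap (unadjusted p = 0.0218, adjusted p = 0.895). GJA5, the connexin of atrium, conduction system and arterial endothelium, had 7.45, 13.03 and 18.4 against 40.0, 19.99 and 16.7 TPM, with pig 30 inside the Group 2 range (unadjusted p = 0.0429). These 4 genes were the ones with an unadjusted p under 0.05 among the 16 tested genes of the Popeye and intercalated disc list, against 3.23% of all genes, and 0 were higher at that p. This list too was written with earlier results of these data known, so its count is no independent evidence. The list median was -0.13, like that of all genes, and 0.011 after scaling. The other 12 junction genes had an unadjusted p from 0.131 (PKP4, a plakophilin) to 0.920 (PKP2, the plakophilin of the cardiac desmosome).

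A further leading lower gene was the microRNA locus ssc-mir-24-1, with 8.25, 6.14 and 2.19 TPM in Group 1, 31.3, 24.6 and 25.7 TPM in Group 2 and 17.0, 17.7 and 19.9 TPM in Group 3 (difference of log2 values -2.24, SE 0.37, adjusted p = 0.0515). A library made from poly(A) RNA holds pieces of the primary transcript and not the mature microRNA, whose level was not measured. RUSC2, a Rab-binding adaptor of vesicle transport, had 6.32, 10.97 and 8.35 against 58.2, 37.1 and 19.97 TPM (4.49-fold lower, adjusted p = 0.105), with wide spread in Group 2 and with Group 3 at 7.38, 8.71 and 12.1 TPM. ARRDC2, an arrestin-related adaptor of receptor trafficking, had 10.1, 12.1 and 19.1 against 56.0, 28.2 and 45.4 TPM (adjusted p = 0.166). MIDN, which targets short-lived nuclear proteins to the proteasome, had 55.7, 82.3 and 101 against 197, 186 and 154 TPM (2.24-fold lower, adjusted p = 0.272). TMEM204, a junction-associated membrane protein of endothelium, had 9.22, 8.86 and 24.1 against 46.3, 37.5 and 58.4 TPM (adjusted p = 0.297).

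AMP-activated protein kinase (AMPK) senses falling cellular energy through its gamma subunit, and PRKAG2 encodes the gamma subunit typical of heart. PRKAG2 had 52.1, 81.0 and 127 TPM in NRP + HOPE 24 h and 238, 239 and 297 TPM in NRP + SCS 2 h (2.98-fold lower, adjusted p = 0.105), and Group 3 had 59.3, 56.6 and 40.8 TPM, at or below the lower end of Group 1. CAMKK1, a kinase that activates other calcium/calmodulin-dependent kinases, had 3.96, 3.86 and 7.57 against 18.3, 18.03 and 18.2 TPM (3.54-fold lower, adjusted p = 0.177), with nearly equal values in Group 2. Of the 8 genes tested in the AMPK list, PRKAG2 was the one with an unadjusted p under 0.05, and the list median was -0.056 (0.072 after scaling).

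PFKFB2, the cardiac enzyme that makes the activator of phosphofructokinase, had 6.96, 5.96 and 12.7 against 25.2, 22.4 and 22.9 TPM (2.76-fold lower, unadjusted p = 0.00373, adjusted p = 0.485). HK2, a hexokinase, had 4.93, 8.69 and 10.8 against 12.6, 21.8 and 17.1 TPM (unadjusted p = 0.0198, adjusted p = 0.878). These were the 2 genes with an unadjusted p under 0.05 among 41 tested genes of glycolysis and the TCA cycle, near the 3.23% of all genes. No gene of that list was higher at that p, and the list median was 0.012 (0.16 after scaling). PFKFB3, the inducible isoenzyme of PFKFB2, is in the hypoxia list and not in that of glycolysis, and had 27.2, 34.9 and 48.0 against 23.8, 26.99 and 7.20 TPM (unadjusted p = 0.0382). SLC19A2, a thiamine transporter, had 24.2, 46.4 and 26.7 against 102, 77.2 and 107 TPM (2.94-fold lower, adjusted p = 0.105). CHKA, the choline kinase that starts phosphatidylcholine synthesis, had 15.4, 15.7 and 32.9 against 129.8, 55.6 and 60.6 TPM, with pig 24 far above the rest (log2 fold change -1.87, adjusted p = 0.120).

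Mitochondrial fuel oxidation did not follow a direction that held across hearts. Of 22 fatty acid uptake and oxidation genes, 18 had a higher mean, against 35.3% of all genes, but ANGPTL4 was the one with an unadjusted p under 0.05, and the median of 0.20 (0.33 after scaling) became -0.23 without pig 30. ACAA2, a thiolase of beta-oxidation, had 51.2, 84.8 and 168 against 46.9, 69.9 and 45.4 TPM, with pig 30 far above the others. Of 41 nuclear genes of the respiratory chain, 1 was higher at an unadjusted p under 0.05 and 0 were lower, with a median of -0.026 (0.12 after scaling). The higher one was UQCRC2, a complex III subunit, at 60.9, 65.0 and 116 against 26.9, 81.6 and 28.7 TPM, which overlapped through pig 25. None of the 13 mitochondrially encoded genes reached an unadjusted p under 0.05, and their median was -0.033 (0.11 after scaling).

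Contractile and calcium genes showed lower levels in a few members. MYH7B, a slow myosin heavy chain gene related to the main ventricular one, had 73.0, 67.8 and 94.2 TPM in NRP + HOPE 24 h and 247, 187 and 268 TPM in NRP + SCS 2 h (2.99-fold lower, adjusted p = 0.166). Group 3 had 128, 210.2 and 350.5 TPM, from below the Group 2 range to above it. MYOM2, a myomesin of the M-band, had 319, 282 and 618 against 634, 669 and 764 TPM, with pig 30 just below the lowest Group 2 heart (unadjusted p = 0.0220). MYPN, a Z-disc scaffold, had 7.41, 11.1 and 14.4 against 19.7, 22.9 and 23.97 TPM (unadjusted p = 0.0216). PDLIM3, an actinin-binding Z-disc gene, had 11.1, 21.7 and 13.9 against 33.3, 20.1 and 31.6 TPM. FLNC, the muscle filamin, had 588, 582 and 1156 against 1318, 1315 and 976 TPM, and both overlapped between groups. MYOM2, MYPN, PDLIM3 and FLNC were the 4 lower genes at an unadjusted p under 0.05 among 26 tested in the sarcomere and Z-disc list, against 3.23% of all genes. That list does not hold MYH7B, and none of its genes was higher at that p. The median of -0.14 was close to that of all genes and was 0.0048 after scaling.

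CAMK2A, a calcium/calmodulin-dependent kinase best known in neurons, had 0.825, 0.384 and 0.987 TPM against 3.98, 3.07 and 6.42 TPM, low in both groups (6.13-fold lower, unadjusted p = 0.00180, adjusted p = 0.358). With all Group 1 hearts under 1 TPM, it passed the filter for testing only through Group 2, where it is high, so its p is not independent of that filter. It was the one gene of 23 in the calcium handling list with an unadjusted p under 0.05. RYR2, the calcium release channel, had 37.1, 34.1 and 58.4 against 79.1, 50.4 and 55.3 TPM, which overlapped, and the list median was -0.12 (0.018 after scaling). ATP1B4 belongs by sequence to the sodium pump beta subunits but in mammals is a nuclear membrane protein of muscle. It had 5.20, 8.64 and 2.88 against 40.6, 17.1 and 36.5 TPM (5.63-fold lower, adjusted p = 0.105) and 7.005, 12.2 and 18.8 TPM in Group 3. ATP1B1, the main beta subunit of the pump, had 57.6, 110.5 and 143 against 47.3, 73.5 and 60.2 TPM (unadjusted p = 0.0565). The chloride transporter gene CLCN6 had 0.846, 1.06 and 2.17 against 2.86, 3.39 and 3.23 TPM. Of 19 ion channel and pump genes, 2 were lower at an unadjusted p under 0.05, ATP1B4 and CLCN6, and 0 were higher at that p. The list median was 0.11 (0.21 after scaling, -0.31 without pig 30).

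PDE7A, a phosphodiesterase that breaks down cyclic AMP, had 19.1, 7.74 and 8.98 against 40.1, 41.3 and 64.4 TPM (4.07-fold lower, adjusted p = 0.265), and Group 3 ran from the Group 1 range to above Group 2 at 18.1, 30.95 and 79.6 TPM. NPPB, the natriuretic peptide of wall stress, had 9.88, 49.4 and 76.9 against 5.96, 8.12 and 19.3 TPM, so pig 27 lay within Group 2 while pigs 28 and 30 lay above it (unadjusted p = 0.0476, adjusted p = 0.992). It was the one member of 11 in the natriuretic peptide list with an unadjusted p under 0.05, and the median of that list was 0.071 (0.17 after scaling).

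**Figure D3:**
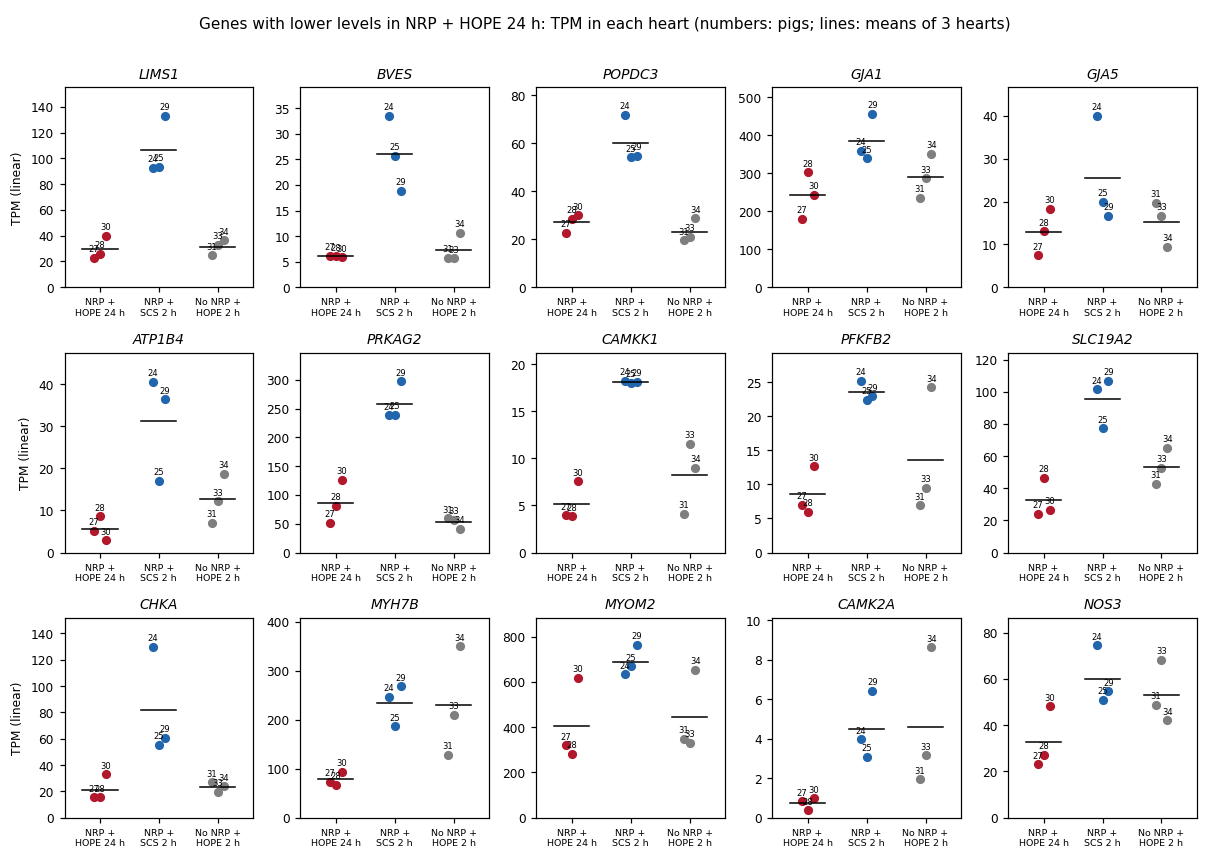
TPM on a linear axis starting at 0 for 15 genes with lower levels in NRP + HOPE 24 h, drawn as in the plot of higher genes: points are hearts labelled by pig number and black lines are means of 3 hearts. The 3 Group 3 hearts of LIMS1, BVES, POPDC3, PRKAG2 and CHKA lie below every Group 2 heart, whereas those of MYH7B and CAMK2A reach above it.

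Endothelial identity genes mostly had lower means, although none passed the adjusted threshold. Of 20 tested, 2 had a higher mean in NRP + HOPE 24 h, against 35.3% of all genes, and 4 after scaling, against 50%. The median log2 fold change was -0.42 (-0.29 after scaling), against -0.12 over all genes, and it ranged from -0.66 to -0.19 with 1 heart left out. NOS3, the endothelial nitric oxide synthase, was the gene with an unadjusted p under 0.05, at 23.1, 27.3 and 48.2 against 74.5, 50.9 and 54.7 TPM (difference of log2 values -0.90, adjusted p = 0.808). In 4 genes the Group 1 hearts all lay below the Group 2 hearts, against 7.44% of all genes, and after scaling in 8, against 7.76%. TEK, the angiopoietin receptor, had 3.41, 5.24 and 7.05 against 7.55, 7.66 and 11.2 TPM. CLEC14A, an endothelial lectin, had 31.7, 64.7 and 60.2 against 68.1, 82.2 and 89.6 TPM. ESM1, a gene of activated tip cells, was an exception at 6.46, 34.5 and 12.02 against 8.17, 3.89 and 6.96 TPM, with pig 28 highest.

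The summed TPM of the 5 endothelial markers was 215, 312 and 499 in Group 1, 481, 410.2 and 478 in Group 2 and 218, 509 and 377 in Group 3. Pigs 27 and 28 thus lay below Group 2 and pig 30 above it, in the order of the scaling factors, and none of these markers was at 0. The part of endothelial content in these gene differences was not tested. Of 17 endothelial activation genes tested, 1 was higher at an unadjusted p under 0.05, PLAT, and 2 were lower, NOS3 and the anticoagulant receptor gene THBD (88.7, 151 and 162 against 181, 228 and 242 TPM, unadjusted p = 0.0344). Their median was -0.005 (0.13 after scaling). Smooth muscle and pericyte markers had a higher mean in 2 of 7, near the 35.3% of all genes, with a median of -0.31 (-0.19 after scaling) and none at an unadjusted p under 0.05, such as ACTA2 with 15.8, 41.6 and 45.7 against 54.3, 55.9 and 42.7 TPM.

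Among 22 immediate early genes, 1 was higher and 1 was lower at an unadjusted p under 0.05. In 5 every Group 1 heart lay above every Group 2 heart, against 2.41% of all genes, and after scaling in 4, against 7.12%. In 2 the order was the opposite, against 7.44%. The higher one was FOSL1, an AP-1 subunit, at 40.96, 79.5 and 73.1 against 36.4, 39.4 and 21.5 TPM. The lower one was NR4A2, an orphan nuclear receptor, at 5.87, 4.65 and 4.46 against 16.3, 8.95 and 15.2 TPM (unadjusted p = 0.00332, adjusted p = 0.443). CSRNP1, a nuclear protein induced by growth signals, had 65.1, 74.8 and 84.4 against 118, 111 and 107 TPM. The mRNA-decay gene ZFP36L1 had 63.2, 92.9 and 98.4 against 60.2, 57.4 and 55.5 TPM, both without overlap and in opposite directions. The list median was 0.19 (0.34 after scaling) and ranged from 0.0081 to 0.29 with 1 heart left out. The 10 MAP kinase feedback inhibitors gave no gene at an unadjusted p under 0.05 in either direction, with a median of 0.098 (0.24 after scaling), and their leading gene DUSP10 had 16.00, 34.3 and 43.3 against 23.7, 17.7 and 11.6 TPM.

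Cold-inducible RNA-binding proteins and splicing kinases all had lower means of log2(TPM + 1), 9 of 9, whereas 35.3% of all genes had a higher mean. Of these, 0 members of the list reached an unadjusted p under 0.05. After scaling 3 of the 9 had a higher mean, against 50% of all genes. Their median was -0.39 (-0.24 after scaling). CLK1 and CLK4 encode kinases of splicing factors. CLK1 had 31.9, 44.04 and 36.3 against 58.4, 40.5 and 80.2 TPM. CLK4 had 8.77, 9.53 and 10.3 against 13.5, 12.2 and 18.9 TPM and was the member whose groups did not overlap. RBM3 and CIRBP, the classical cold-induced RNA-binding proteins, are named after their values were seen. RBM3 had 216, 330.5 and 288 against 331, 247 and 297 TPM. CIRBP had 86.8, 102 and 186 against 126, 124 and 111 TPM, and in both genes the groups overlapped. Of 15 circadian clock genes, PER1 was the one with an unadjusted p under 0.05, at 50.6, 32.6 and 43.7 against 91.3, 63.5 and 88.3 TPM and 85.9, 76.4 and 151 TPM in Group 3 (difference of log2 values -0.93, adjusted p = 0.736). The clock median was -0.059 (0.076 after scaling).

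PER1 is also a target of the glucocorticoid receptor, and that list gave 2 higher and 1 lower genes of 14 at an unadjusted p under 0.05, against 1.7% and 3.23% of all genes. The higher ones were ANGPTL4 and MT1A, a metallothionein that binds zinc and copper, at 174, 126 and 198 against 31.7, 84.9 and 62.5 TPM (2.78-fold, unadjusted p = 0.00195, adjusted p = 0.359). Metallothionein genes are near-identical copies, so the level of this one is uncertain. FOXO1, a transcription factor of fasting, had 11.2, 15.8 and 21.04 against 10.5, 10.01 and 10.6 TPM, and the list median was -0.11 (0.036 after scaling).

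The 18 heat shock genes and the 23 genes of the unfolded protein and integrated stress response gave no gene at an unadjusted p under 0.05. Their medians were 0.073 (0.22 after scaling) and -0.027 (0.12 after scaling). HSF1, the main heat shock transcription factor, had 22.96, 21.2 and 41.1 against 45.1, 41.9 and 34.01 TPM. HSF2, its relative, had 9.94, 19.6 and 16.1 against 36.0, 16.6 and 23.9 TPM, and both overlapped between groups. ERN1, the sensor kinase of misfolded proteins in the endoplasmic reticulum, had 5.06, 7.77 and 7.96 against 17.9, 11.6 and 14.4 TPM without overlap (unadjusted p = 0.0501). Its substrate gene XBP1 had 94.8, 142 and 150.1 against 165, 146 and 199.7 TPM. The chaperone gene HSPA5 had 149, 301 and 295 against 182, 191 and 162 TPM.

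Hypoxia-inducible genes gave 2 higher genes and 1 lower gene of 27 at an unadjusted p under 0.05. The higher ones were PFKFB3 and EGLN3, a prolyl hydroxylase that limits the hypoxia response (6.79, 11.5 and 21.4 against 3.52, 7.32 and 6.03 TPM), and the lower one was HK2. HIF1A, the oxygen-regulated subunit itself, had 31.4, 73.1 and 83.5 against 121, 102 and 88.8 TPM without overlap (unadjusted p = 0.0555), and the list median was 0.057 (0.20 after scaling). In NRF2 and antioxidant defence, TXNRD1, a thioredoxin reductase, was the gene of 21 with an unadjusted p under 0.05, at 99.3, 111 and 121 against 77.2, 77.2 and 52.6 TPM. NFE2L2, which encodes NRF2, had 42.7, 70.7 and 74.1 against 42.5, 34.5 and 49.2 TPM. That median was 0.17 (0.30 after scaling) and -0.080 without pig 30.

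The cell death and growth arrest genes PLK2, FAS and RIPK3 each had an unadjusted p under 0.05. PLK2, a stress-induced polo-like kinase, had 67.1, 56.2 and 108 against 53.6, 34.2 and 23.5 TPM. The death receptor gene FAS had 8.58, 10.7 and 15.7 against 6.16, 4.63 and 6.46 TPM. RIPK3, the kinase of necroptosis, had 9.31, 9.65 and 16.3 against 31.8, 19.2 and 19.9 TPM. Their adjusted p-values ran from 0.708 to 0.895, with PLK2 and FAS higher and RIPK3 lower in Group 1. None of the 3 overlapped between groups, which held for 2.41% of all genes with higher and 7.44% with lower levels. They were named for their small p, so this lack of overlap is not a finding. In protein synthesis and turnover nothing stood out. Of 29 cytosolic ribosomal protein genes and 24 proteasome genes, none reached an unadjusted p under 0.05, and the medians were -0.12 (0.026 after scaling) and -0.19 (-0.045 after scaling).

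Levels of erythroid transcripts differed between hearts. The HOPE circuit held donor red cells in Groups 1 and 3, and NMP used donor blood in every heart. The erythroid markers summed to 74.3, 348 and 430.5 TPM in Group 1, 72.3, 136 and 80.2 TPM in Group 2 and 227, 379 and 226 TPM in Group 3. HBB, the beta globin gene, made up most of this with 73.5, 339 and 419.8 against 70.8, 132 and 78.4 TPM (unadjusted p = 0.0272, adjusted p = 0.918), and pig 27 lay within Group 2. Globin genes are similar copies, so reads may be lost between HBB and its neighbours. ALAS2, the erythroid heme synthesis enzyme, followed it with 0.407, 4.19 and 4.96 against 0.605, 1.103 and 0.930 TPM. The median of the 3 tested erythroid markers was 0.91 (0.93 after scaling). Neutrophil markers were low in every heart, at a sum of 3.02, 5.31 and 7.40 TPM in Group 1 and 16.9, 8.76 and 6.38 TPM in Group 2. MPO and CSF3R were listed at 0 in all hearts, and S100A9 had 0.356, 0.774 and 2.65 against 8.02, 4.78 and 1.79 TPM (unadjusted p = 0.0108), with pig 30 within the Group 2 range. The part of blood cells in the differences above was not tested.

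Apart from LCK, HBB and S100A9, no marker gene of any cell type had an unadjusted p under 0.05. The medians were -0.081 for 7 cardiomyocyte markers (0.067 after scaling), 0.093 for 6 fibroblast markers (0.24) and -0.11 for 6 macrophage markers (0.027), among which CD68 had 9.17, 22.7 and 24.3 against 33.2, 30.9 and 18.4 TPM. For the 5 endothelial markers it was -0.47 (-0.32 after scaling), for 9 T and NK cell markers 0.13 (0.16), and for 3 neutrophil markers -0.21 (-0.12). Platelet markers had a median of -0.044 over 3 genes (0.053 after scaling) and adipocyte markers one of -0.35 over 2 genes (-0.25). B and plasma cells (MZB1), mast cells (KIT) and Schwann cells with neurons (NCAM1) were each represented by 1 tested gene, with log2 fold changes of -0.55, -0.27 and -0.11.

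**Figure D4:**
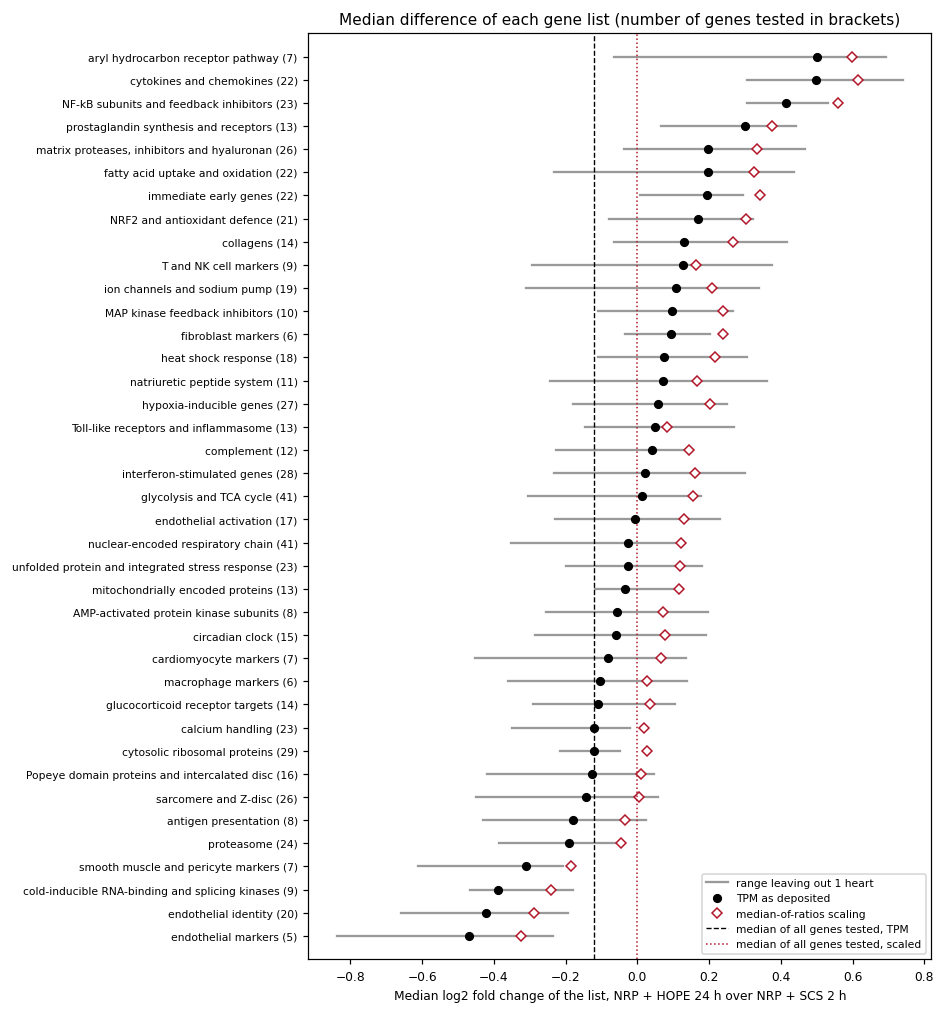
Median log2 fold change, NRP + HOPE 24 h over NRP + SCS 2 h, of 39 of the 40 gene lists with at least 5 tested genes each (number of genes in brackets). Black points are TPM as deposited, open red diamonds the values after median-of-ratios scaling and grey lines the range with 1 heart left out. The dashed line is the median of all genes tested (-0.12) and the dotted line that median after scaling. The NF-kB, cytokine, prostaglandin and immediate early gene lists lie right of both lines over their whole grey range, and the endothelial identity, endothelial marker, smooth muscle and cold-inducible lists lie left of the dashed line over theirs.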

How the data were processed

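Apex biopsies of 9 pig hearts in 3 groups of 3 were sequenced as poly(A) RNA, and 6 hearts entered the comparison described. The authors deposited TPM values for 25149 genes per heart. The submitters' processing notes name bcl2fastq 2.17, Trimmomatic 0.36, STAR 2.5.2b, featureCounts of Subread 1.5.2 for counting unique reads, and DESeq2, which the authors ran on read counts not used here. The genome build and the gene lengths behind the TPM are not given in the sources used here. TPM divides by a total that a few abundant genes can dominate, and depth per heart is unknown. A further 9 columns of values belong to no labelled heart and were not used.

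The 11099 genes that reached 1 TPM in 3 or more of these hearts were tested on log2(TPM + 1), so fold changes of low genes are understated on that scale. The test was limma 3.58.1 in R 4.3.3 with an intensity trend, in 1 fit over all 9 hearts with a mean per group (6 residual degrees of freedom), with Benjamini-Hochberg adjustment over every gene tested. Calls required a log2 fold change beyond 1 in either direction besides an adjusted p under 0.05. Folds on the means are ratios of mean TPM without a pseudocount. Single values were compared by an exact permutation test. The procedure was tested on simulated data, drawn independently for each gene and heart. No shift shared by a whole heart was simulated, so that case is not covered. The genes named are those called, the 15 with a symbol and the smallest p in each direction among genes with an unadjusted p under 0.05, an absolute log2 fold change over 1 and no overlap, and from each of 47 gene lists up to 4 members with the smallest p. Of 1146 list entries, 788 were found in the table. Some genes and 1 list are not reported here. Members and lists were chosen with earlier results of these data known. Of 12006 genes without a symbol in the files, 754 received one from a reference table. The order of neighbouring genes came from RefSeq's Sscrofa11.1 annotation, and no coordinates are given. Alternatives were a pseudocount of 0.1, no filter, a mean of at least 5 TPM, median-of-ratios and quantile normalization, removal of mitochondrially encoded genes, the 6 hearts alone, eBayes without trend or robust, array weights (statmod 1.5.0) and each heart left out. Gene-by-gene array weights were added after the data were seen. Figures were drawn with matplotlib 3.10.9 in Python 3.11.15.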

Additional observations from a re-analysis of the deposited data

How the results depend on the processing

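With 3 hearts a group and no read counts, the adjusted calls rested on single hearts and settings. The 3 higher and 0 lower calls became 0 higher with a pseudocount of 0.1, 1 higher without a filter on low values, 1 higher and 1 lower without mitochondrially encoded genes, and 8 higher and 9 lower with only the 6 hearts in the fit. The lower count became 4 with a mean of at least 5 TPM, 1 under median-of-ratios scaling, 2 under quantile normalization and 4 under robust eBayes. Array weights gave 224 higher and 523 lower genes, but the default algorithm stopped before its tolerance, and the gene-by-gene algorithm, chosen after seeing the data, gave 51 and 113. With 1 heart left out, adjusted calls ranged from 0 higher (without pig 30) to 12 higher (without pig 27), and from 0 to 3 lower (the latter without pig 27). At an unadjusted p under 0.05 with the fold change, the 111 higher and 132 lower genes became 72 and 83 with a mean of at least 5 TPM, 257 and 557 with array weights, and 184 and 386 with gene-by-gene weights. The lower count was 215 with a pseudocount of 0.1, 80 under median-of-ratios scaling and 81 under quantile normalization. With 1 heart left out the higher count ranged from 89 (without pig 30) to 238 (without pig 27), and the lower count from 124 to 321 (without pig 30). The cause was not tested, apart from the number of genes tested, which was 16664 without a filter and 6873 with a mean of at least 5 TPM. The difference in mitochondrially encoded share of -0.84 percentage points ranged from -3.81 (without pig 27) to 4.76 (without pig 30) with 1 heart left out, and was 0.385 without pig 29. Over these alternatives, the fold changes of 102 of the genes named gave 1552 values that kept direction and side of the threshold, 154 that newly passed it, 18 that no longer did and 0 that reversed. Of the other genes named, the markers KIT, TNNT2, NCAM1 and DCN and the genes AHR, RBM3, CIRBP and PKP2, none of them near the threshold, changed sign in 2 to 6 alternatives. Where an alternative gave a value (794 of the list medians, with 5 missing), the median moved by less than the spread between hearts, but in 34 of 47 lists its sign changed in at least 1 alternative, most often in endothelial activation (8). No paired analysis was possible because the groups share no pig or replicate number. Fold changes of genes near 1 TPM are the least certain, since depth is unknown.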
